A study of Mus musculus with 5 samples.

Results

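The 9 genes described here encode the hypoxia-inducible transcription factors (HIFs) and the enzymes that control them. They are the alpha subunit genes Hif1a, Epas1 and Hif3a, the beta subunit gene Arnt, the prolyl hydroxylase (PHD) genes Egln1, Egln2 and Egln3, the asparaginyl hydroxylase gene Hif1an, and Vhl. They were taken by gene name from a table of 17015 genes, and each name matched 1 row. The values come from bulk RNA sequencing of the tibialis anterior (TA), a fast muscle of the lower leg, in males aged 8 weeks that had not been trained. There were 3 libraries labelled WT control and 2 labelled skmNrip1-/-. In skmNrip1-/- mice, Cre recombinase under the myogenin promoter, which is active in differentiating skeletal muscle cells, deletes a floxed exon of Nrip1. The floxed mice were C57BL/6J and the Cre mice C57BL/6JN. That exon holds the whole coding sequence of Nrip1, which encodes RIP140, a corepressor of nuclear receptors. Blood, vessel and nerve cells of the muscle are outside the cell types that this promoter is known to drive. The study's methods describe the controls as Cre-negative littermates. Whether these controls carried the floxed allele was not checked for these libraries.

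An HIF is a heterodimer of 1 alpha subunit and the beta subunit ARNT. When oxygen is plentiful, the prolyl hydroxylases modify the alpha subunit, the von Hippel-Lindau protein VHL binds it, and it is degraded. The asparaginyl hydroxylase, also called FIH, blocks the binding of coactivators to the alpha subunits. When oxygen falls, the alpha subunits persist, pair with ARNT and bind DNA at hypoxia response elements with the core ACGTG or GCGTG. Most of this control acts on protein, which RNA levels do not measure. In skeletal muscle the pathway is known for its links to glycolysis and to capillary growth through Vegfa.

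The targeted gene was examined first. Nrip1 had 4.64, 7.69 and 6.55 FPKM (fragments per kilobase of transcript, scaled for library size) in the WT control libraries and 25.3 and 22.5 FPKM in the libraries labelled skmNrip1-/-. It was called higher, with a log2 fold change of 1.94 (SE 0.213, limma adjusted p = 0.0261). The call was lost without WT control replicate 3 (adjusted p = 0.112) and without skmNrip1-/- replicate 1 (0.188) or replicate 2 (0.142), while the log2 fold change stayed between 1.74 and 2.09 whichever library was left out. The table has 1 value per gene, so reads over the deleted exon cannot be separated from reads over the remaining exons, and this value does not check the deletion. It runs against the direction the label implies, so every direction given here is that of the libraries labelled skmNrip1-/- against those labelled WT control. From the spacing of low values, the library size used to scale the FPKM was estimated. It was about 48800000 to 53800000 fragments in the WT control libraries and 39900000 and 47500000 in the others. The deposited values share 1 median level across libraries, so these sizes need not be the numbers of fragments sequenced.

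None of the HIF and hydroxylase genes passed the test, and the smallest p-values among them were those of a pair of prolyl hydroxylase genes with opposite signs. Egln1, the main prolyl hydroxylase acting on HIF alpha in most tissues, was 31.5% higher in the mean of the libraries labelled skmNrip1-/-, and Egln2 differed by -28.0%. Neither gene overlapped between the groups. The alpha subunit genes and Arnt overlapped between the groups. Of the 9 genes, 8 reached the minimum mean of 0.5 FPKM. A call needed an adjusted p of 0.05 or less, over 12148 genes, and a fold change of at least 1.2. By that rule 0 of the 8 were called higher, against 0.37% of all tested genes, and 0 were called lower, against 0.0823%. At an unadjusted p of 0.05 or less, limma gave 1 of the 8 as higher, against 6.57% of all tested genes, and 1 as lower, against 5.33%. The libraries did not overlap in 1 gene that was higher, against 15.8% of all tested genes, and in 1 that was lower, against 14.4%. A count of 1 in 8 is close to these background shares. Among the 8, 4 log2 fold changes lay above 0 and 4 below, with a median of -0.026, beside -0.001 for all tested genes. With 3 libraries against 2, the smallest p that an exact two-sided permutation test can give is 0.2.

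**Figure D1:**
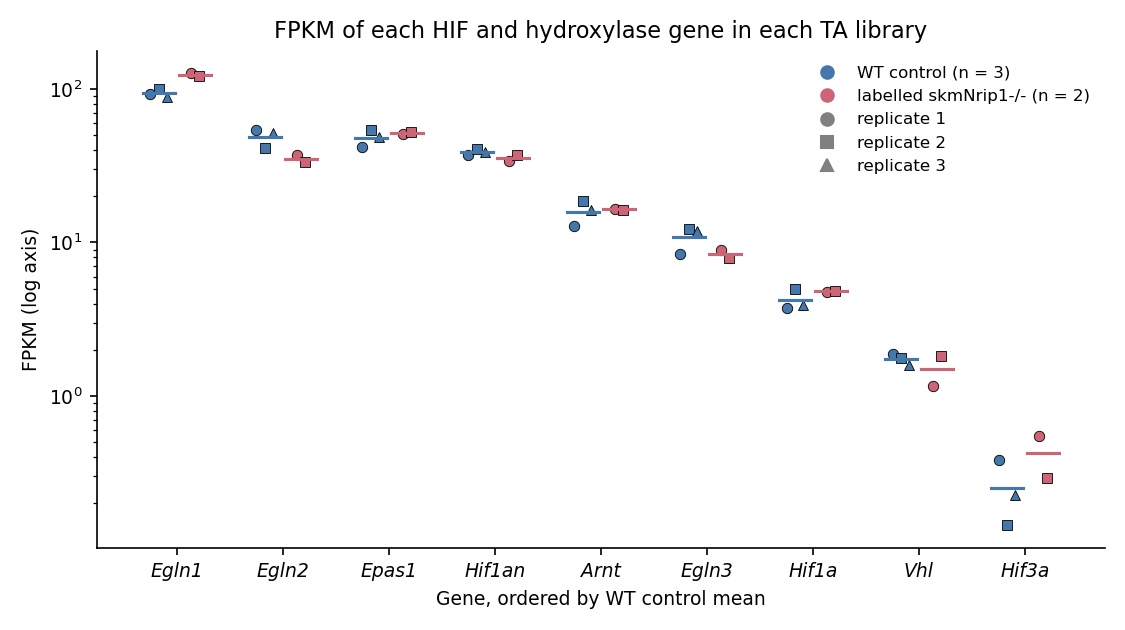
FPKM on a log axis for each of the 9 genes in each of the 5 libraries, ordered by the WT control mean. Points are libraries, with the shape giving the replicate number, and the short lines are group means. Egln1 is the highest and Hif3a the lowest in both groups, and the points of the groups are apart only for Egln1 and Egln2.

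Of the alpha subunits, Epas1, which encodes HIF-2alpha and is known from endothelial cells, was the most abundant transcript. Epas1 had 41.6, 54.3 and 48.6 FPKM in the WT control libraries and 51.1 and 52.6 FPKM in the libraries labelled skmNrip1-/-. The latter pair lay within the control range, and the log2 fold change was 0.11 (SE 0.134, 95% interval -0.21 to 0.44, limma adjusted p = 0.807). It was 0.01 without WT control replicate 1 and 0.21 without WT control replicate 2. Because this is whole muscle, fewer cells of a type and less RNA per cell cannot be told apart. The markers of endothelium, a cell type in which Epas1 is abundant, had a summed level of 210.8 to 232.2 FPKM in the controls and of 193.7 and 195.2 FPKM in the others. Of these 15 markers 0 were called, against 0.37% of all tested genes called higher and 0.0823% called lower. Their log2 fold changes ran from Cldn5, a tight junction gene (-0.32), to Kdr, a VEGF receptor gene (0.07, and below 0 with library totals set equal or with WT control replicate 1 left out, among other settings). Of the 15, 12 lay below 0. The part of endothelial content in the Epas1 values was not tested.

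Hif1a, the subunit most often tied to glycolytic genes, was far less abundant than Epas1. It had 3.72, 4.95 and 3.93 FPKM in the controls and 4.77 and 4.83 FPKM in the libraries labelled skmNrip1-/-. The last pair was close together but within the control range, since WT control replicate 2 was the highest of all 5. The log2 fold change of Hif1a was 0.20 (SE 0.154, 95% interval -0.17 to 0.57, limma adjusted p = 0.689).

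Hif3a, whose product includes forms that inhibit the other alpha subunits, was barely detected. It had 0.385, 0.144 and 0.227 FPKM in the controls and 0.553 and 0.294 FPKM in the others, which corresponds to about 47 to 134 fragments per library. The groups overlapped. Its mean was under the minimum, and without that minimum its log2 fold change was 0.58 (95% interval -0.33 to 1.496, limma adjusted p = 0.679).

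Summed FPKM of the 3 alpha genes were 45.7, 59.4 and 52.8 in the controls and 56.4 and 57.7 in the libraries labelled skmNrip1-/-. Epas1 made up 91.0, 91.4 and 92.1% of that sum in the controls and 90.6 and 91.1% in the others. These shares overlapped, with a difference of -0.67 percentage points (exact two-sided permutation p = 0.4). The Hif1a share was 8.15, 8.33 and 7.45% in the controls and 8.45 and 8.37% in the others. It did not overlap, but the difference of 0.43 percentage points was smaller than the SD of 0.468 among the controls (exact two-sided permutation p = 0.2, the smallest possible). Hif3a held under 1% in every library, 0.243 to 0.844% in the controls and 0.509 and 0.981% in the others.

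Arnt, the shared partner of the alpha subunits, had 12.7, 18.6 and 16.2 FPKM in the controls and 16.5 and 16.3 FPKM in the libraries labelled skmNrip1-/-. The latter values fell in the middle of the control range. The log2 fold change was 0.07 (SE 0.169, 95% interval -0.33 to 0.47, limma adjusted p = 0.914), and it was -0.08 without WT control replicate 1. The summed alpha level was 3.19 to 3.59 times that of Arnt in the controls and 3.41 and 3.54 times in the others, again overlapping. Among the controls, replicate 1 was the lowest and replicate 2 the highest for Hif1a, Epas1, Arnt, Egln3 and Hif1an, while Egln2 had the opposite order.

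The prolyl hydroxylase genes and Hif1a held ACGTG, a form of the HIF core, near their starts (first base at -229 to -3). Those stretches are shown for that reason. RefSeq promoter windows (GRCm38.p6, 250 bases before to 50 after a start) were found for 8 of the 9 genes, in 9 windows, with Epas1 unmatched. The letters ACGTG, on either strand, occurred in 4 of the 9 windows (44.4%), against 19.6% of all 32817 windows of this length and 45.8% of the 59 windows of HIF target genes. GCGTG occurred in 5 of the 9 windows (55.6%), against 32.4% of all windows. Either form occurred in 7 of the 9 (77.78%), against 43.75% of all windows. CACGTG, the E-box that clock and MYC factors also read and that contains ACGTG on both strands, occurred in 2 of the 9 (22.2%), against 7.15%. AAGGTCA, the half-site of estrogen-related receptors, occurred in 0 of the 9 windows, against 4.72% of all. The stretches below give the occurrences on the strand of each gene with ACGTG in capitals, and the position of its first base relative to the start in brackets. They are matches of letters only.
Egln1, chr8:124949300-124949340, minus strand (-68): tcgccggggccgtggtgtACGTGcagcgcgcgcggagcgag
Egln2, chr7:27166828-27166868, minus strand (-48): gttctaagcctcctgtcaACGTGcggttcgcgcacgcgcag
Egln2, chr7:27166783-27166823, minus strand (-3, in an E-box): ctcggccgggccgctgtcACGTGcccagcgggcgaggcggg
Egln3, chr12:54204081-54204121, minus strand (-229): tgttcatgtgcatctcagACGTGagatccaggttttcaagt
Hif1a, chr12:73907715-73907755, plus strand (-134, in an E-box): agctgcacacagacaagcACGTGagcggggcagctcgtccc
Hif1a, chr12:73907779-73907819, plus strand (-70): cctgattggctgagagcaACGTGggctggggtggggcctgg
All 3 prolyl hydroxylase genes had ACGTG in a window, while the other Egln2 window (chr7:27165679-27165978) held none. A link between these letters and the log2 fold changes was not tested. The windows of Arnt, Hif3a, Hif1an and Vhl held no ACGTG, but those of Arnt and Hif3a held GCGTG. The GC content of the Egln1 window was 86%, the highest of the 9, and that of the other 8 windows was 49.3 to 69.3%.

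Egln1, which encodes PHD2, lies at chr8:124908587-124949324 on the minus strand (GRCm38) and has 1 annotated transcript of 5 exons. Its FPKM were 93.1, 100.4 and 88.6 in the controls and 126.2 and 121.0 in the libraries labelled skmNrip1-/-. Both of the latter were above every control. The means were 94.0 ± 5.94 (SD, n = 3) and 123.6 ± 3.67 (SD, n = 2), and the log2 fold change was 0.40 (SE 0.104, 95% interval 0.15 to 0.65). The unadjusted limma p was 0.00739 and the adjusted p 0.236, so it was not called. With about 14262 to 18818 fragments per library, counting error is small beside the spread between libraries.

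Egln2, which encodes PHD1 and is known in muscle from work on oxygen use, lies at chr7:27158658-27166802 on the minus strand and overlaps Cyp2t4 on the opposite strand. Its FPKM were 54.0, 41.1 and 51.6 in the controls and 37.0 and 33.4 in the libraries labelled skmNrip1-/-. Both of the latter were below every control, although WT control replicate 2 came within a few FPKM of them. The means were 48.9 ± 6.88 (SD, n = 3) and 35.2 ± 2.53 (SD, n = 2), and the log2 fold change was -0.46 (SE 0.145, 95% interval -0.81 to -0.12). The unadjusted limma p was 0.0161 and the adjusted p 0.293, so it was not called either.

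Egln3, which encodes PHD3 and is itself a classical HIF target, was the least abundant of the family. It had 8.43, 12.3 and 11.9 FPKM in the controls and 8.93 and 7.96 FPKM in the libraries labelled skmNrip1-/-. WT control replicate 1 lay between the latter values, so the groups overlapped. The log2 fold change was -0.34 (SE 0.184, 95% interval -0.78 to 0.10, limma adjusted p = 0.540).

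**Figure D2:**
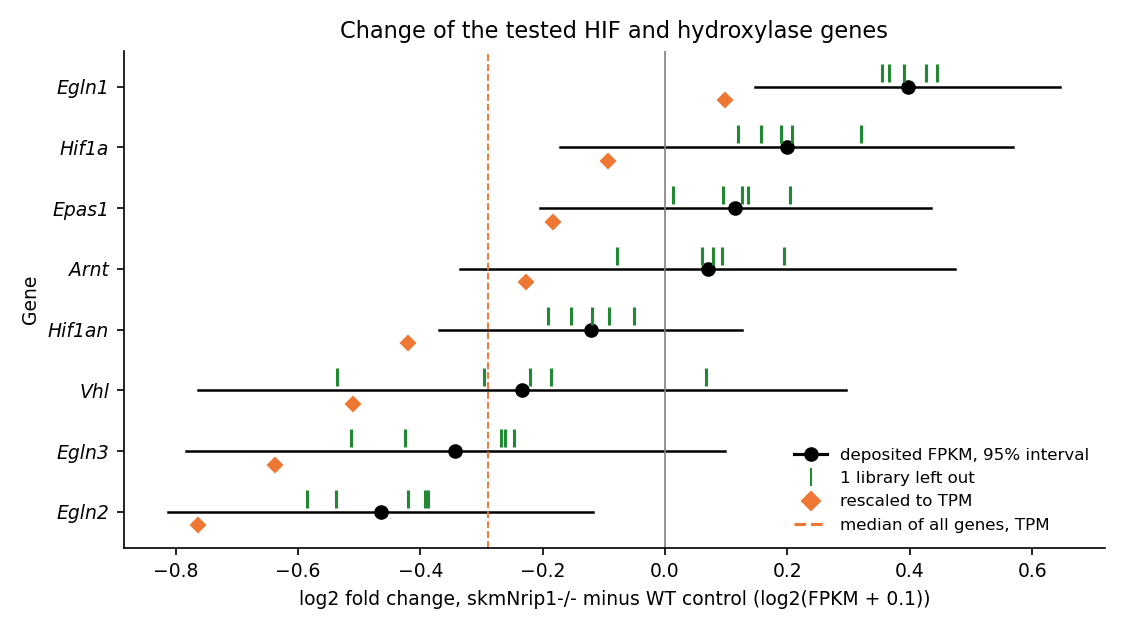
Log2 fold change, libraries labelled skmNrip1-/- minus WT control, of the 8 tested genes. Black points and lines are the deposited FPKM with 95% intervals, green ticks leave out 1 library each, orange diamonds have library totals set equal (TPM), and the dashed line is the median of all tested genes on that scale. The intervals of Egln1 and Egln2 exclude 0 on opposite sides, and the orange points shift with the dashed line at -0.29.

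Another scaling of the libraries moved all genes together, and with them the signs of some of these. The FPKM sums differed between libraries, and the genes of mitochondrial DNA took 45.4 to 50.7% of the sum in the controls and 58.6 and 60.9% in the libraries labelled skmNrip1-/-. When each library was set to the same total (TPM scaling), the median of the log2 fold changes over all tested genes moved to -0.29. On that scale Egln1 overlapped between the groups, with a log2 fold change of 0.10, which is 0.39 above that median. Egln2 was at -0.76 (limma adjusted p = 0.0617), which is 0.47 below the median (-0.47). Egln2, Egln3 (-0.64), Hif1an (-0.42) and Vhl (-0.51) lay below every control on the TPM scale. The share of all tested genes that did so on that scale was not computed, so this is no result about these genes. Hif1a, Epas1 and Arnt changed sign, to -0.09, -0.18 and -0.23. Relative to the median of all genes, each tested gene of the 8 stayed within 0.02 of its value on the deposited scale.

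Shares within a library do not depend on this scaling, and they showed the prolyl hydroxylase mix most directly. Egln1 made up 59.8, 65.3 and 58.3% of the summed FPKM of the 3 genes in the controls and 73.3 and 74.5% in the libraries labelled skmNrip1-/-. This share was 12.8 percentage points higher and did not overlap. Egln2 made up 34.7, 26.7 and 33.9% in the controls and 21.5 and 20.6% in the others, a difference of -10.8 percentage points, also without overlap. The Egln3 share was 5.42, 7.98 and 7.82% in the controls and 5.19 and 4.90% in the others, a difference of -2.03 percentage points. For each of the 3 shares the exact two-sided permutation p was 0.2, the smallest possible, and 0.325 after Benjamini-Hochberg adjustment over 13 shares, sums and ratios. The shares sum to the whole, so they are not independent of one another.

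Several ratios were computed after these values had been seen, and are given as description. Egln1 was 1.72, 2.44 and 1.72 times Egln2 in the controls and 3.41 and 3.62 times in the libraries labelled skmNrip1-/-. The sum of the 3 prolyl hydroxylase genes was 155.5, 153.7 and 152.1 FPKM in the controls and 172.1 and 162.4 FPKM in the others. That sum was 2.59 to 3.40 times the alpha sum in the controls and 2.81 and 3.05 times in the others. The ratio of hydroxylase to alpha transcripts thus overlapped between the groups. The make-up of the hydroxylases and their sum did not. Epas1 over Hif1a did not overlap either (10.97 to 12.37 in the controls, 10.72 and 10.89 in the others). Each had an exact two-sided permutation p of 0.2, the smallest possible, and 0.325 adjusted over the 13. The make-up restates the opposite changes of Egln1 and Egln2 and is no separate result.

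**Figure D3:**
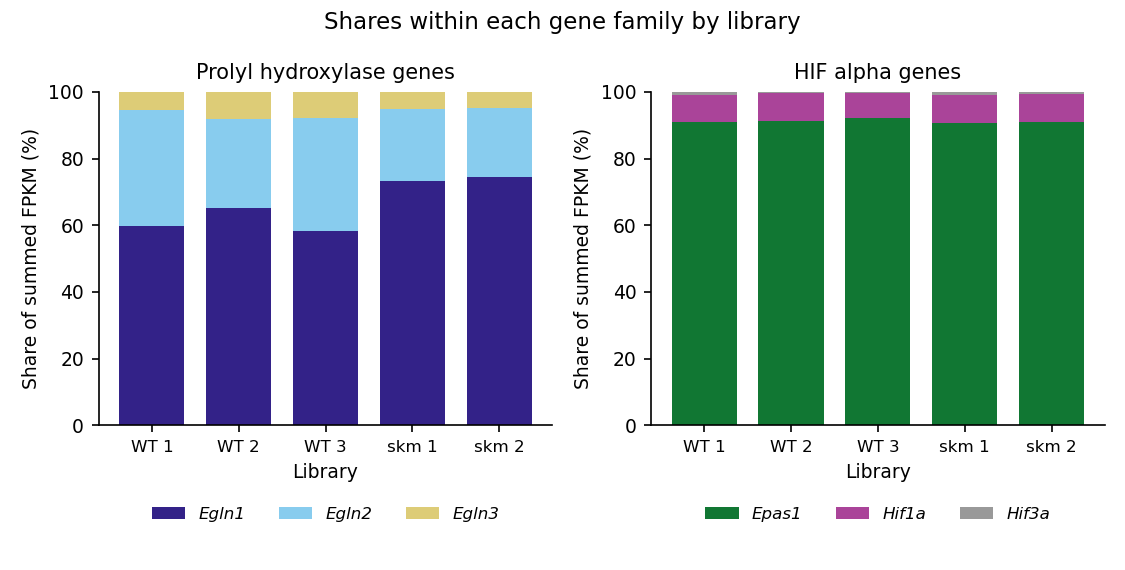
Share of each gene in the summed FPKM of its family (%, stacked bars from 0 to 100) for each library, with the prolyl hydroxylase genes on the left and the HIF alpha genes on the right; skm stands for the libraries labelled skmNrip1-/-. The Egln1 share is 58.3 to 65.3% in the 3 WT control libraries and 73.3 and 74.5% in the other 2, while Epas1 holds 90.6 to 92.1% in every library.

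Hif1an, which encodes FIH, had 37.0, 40.4 and 38.8 FPKM in the controls and 33.9 and 37.3 FPKM in the libraries labelled skmNrip1-/-. The groups overlapped by a narrow margin. The log2 fold change was -0.12 (SE 0.103, 95% interval -0.37 to 0.13, limma adjusted p = 0.721). Relative to the summed alpha genes, Hif1an was 0.680 to 0.810 in the controls and 0.601 and 0.647 in the others, which did not overlap (exact two-sided permutation p = 0.2, 0.325 adjusted over the 13).

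Vhl, which encodes the substrate receptor of the ubiquitin ligase for hydroxylated alpha subunits, had 1.87, 1.78 and 1.59 FPKM in the controls and 1.17 and 1.83 FPKM in the libraries labelled skmNrip1-/-. Replicate 1 of the latter group was the lowest of all 5 and replicate 2 lay among the controls. The log2 fold change was -0.23 (SE 0.221, 95% interval -0.76 to 0.30, limma adjusted p = 0.753). Without skmNrip1-/- replicate 1 it was 0.07, so its direction rested on that library. Vhl had about 115 to 237 fragments per library, and its interval was the widest of the tested genes.

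In order of FPKM, which is a level per transcript length, the WT control libraries ran from Egln1 through Egln2, Epas1, Hif1an, Arnt, Egln3, Hif1a and Vhl to Hif3a. All neighbours were separated in their ranges except Egln2 and Epas1, with Egln2 above Epas1 in 2 of 3 libraries. In the libraries labelled skmNrip1-/-, Egln2 stood behind Epas1 and level with Hif1an, whose range it overlapped (35.2 and 35.6 FPKM in the mean). The other places were the same.

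The genes whose profile over the 5 libraries was nearest to that of Egln1, by root mean square distance of centred log2 values, were Mrps31 (0.0229), which encodes a mitochondrial ribosomal protein, Slc25a46 (0.0314), a mitochondrial outer membrane protein gene, and Slc25a3 (0.0343), the mitochondrial phosphate carrier gene. Mrps31 had 19.2, 20.3 and 17.95 FPKM in the controls and 25.6 and 25.5 FPKM in the libraries labelled skmNrip1-/-. Nearest to Egln2 were Miip (0.0390), Popdc3 (0.0474), a Popeye domain gene of striated muscle, and Ube2m (0.0519), which encodes a conjugating enzyme for NEDD8. Miip had 7.67, 5.89 and 7.22 FPKM in the controls and 4.93 and 4.75 FPKM in the others. The values were centred on the WT control mean, so the distance includes the difference between the groups. Neighbours therefore share the change of their member by construction. None of these 6 neighbours was called, which is no separate result.

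Other genes of the pathway were taken from lists of textbook members. Of the genes for HIF turnover and cofactors, all 27 were tested and 0 were called, against 0.37% of all tested genes called higher and 0.0823% called lower. In this list 10 log2 fold changes lay above 0 and 17 below, with a median of -0.03. At an unadjusted limma p of 0.05 or less, 1 was higher and 2 were lower, against 6.57% and 5.33% of all tested genes. Hspa8, the constitutive HSP70 chaperone gene, was the higher one, with 465.8, 471.8 and 393.4 FPKM in the controls and 575.4 and 558.6 FPKM in the libraries labelled skmNrip1-/- (log2 fold change 0.36, adjusted p = 0.344). The lower ones were Usp20, a deubiquitinase of HIF-1alpha (-0.47, adjusted p = 0.416), and Pkm, the pyruvate kinase whose M2 form is a HIF coactivator (-0.45, adjusted p = 0.309). The value of Pkm covers all forms of this glycolytic enzyme gene, so the M2 form was not measured on its own. Next came P4htm, the transmembrane prolyl hydroxylase gene (-0.36), and Fkbp8, which encodes a partner of PHD2 (-0.26). On the higher side were Wsb1 (0.19) and Siah1b (0.12), which encode ubiquitin ligase components, and the coactivator gene Ep300 (0.15), all 3 of which turned below 0 on the TPM scale.

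The HIF target list held 48 genes, of which 45 were tested. Of these 2 were called higher, against 0.37% of all tested genes, and 0 lower, against 0.0823%, and 19 log2 fold changes lay above 0 and 26 below, with a median of -0.066. Hk1, a hexokinase gene, rose from 2.59, 2.67 and 2.57 FPKM to 5.19 and 6.56 FPKM (log2 fold change 1.13, SE 0.144, limma adjusted p = 0.0394). Eno1, which encodes the non-muscle form of enolase, rose from 65.5, 64.2 and 59.3 FPKM to 113.6 and 102.6 FPKM (0.78, SE 0.106, limma adjusted p = 0.0481). Both groups were far apart in these genes, but each call was lost when any 1 of the 5 libraries was left out, with limma adjusted p of 0.0726 to 0.304 for Hk1 and 0.0726 to 0.395 for Eno1. The log2 fold changes stayed at 0.97 to 1.30 for Hk1 and 0.70 to 0.85 for Eno1. It was also lost on the TPM scale, with adjusted p of 0.0642 for Hk1 and 0.0770 for Eno1.

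At an unadjusted p of 0.05 or less, 3 of the 45 targets were higher and 6 lower, against 6.57% and 5.33% of all tested genes. Vegfa, the angiogenic growth factor gene, was the third of the higher ones. It had 180.3, 208.3 and 157.9 FPKM in the controls and 221.4 and 239.8 FPKM in the libraries labelled skmNrip1-/-, with both of the latter above every control (log2 fold change 0.35, 95% interval 0.01 to 0.69, limma adjusted p = 0.406). The 6 lower ones included Slc16a3, the lactate exporter gene, with 330.3, 321.3 and 358.2 FPKM in the controls and 253.1 and 190.8 FPKM in the others (-0.61, adjusted p = 0.197). Gapdh (-0.57) and, named after their values were seen, Ldha (-0.37) and Tpi1 (-0.39) are glycolytic enzyme genes. Ddit4 (-0.48), an inhibitor of mTORC1 signalling, and Bhlhe40 (-0.31), a circadian repressor also named after its values were seen, completed the 6. None of the 6 was called, although on the TPM scale Ddit4 was (-0.77, limma adjusted p = 0.0496). Tfrc, the transferrin receptor gene, was at 0.58 but overlapped between the groups, and it was 0.17 without skmNrip1-/- replicate 2 and 0.99 without replicate 1 of that group. Ankrd37 was at -0.46, also with overlap, and ran from -0.74 to -0.19 as 1 library was left out, the ends being without skmNrip1-/- replicate 2 and replicate 1.

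Of the 45 targets, 6 were higher (15.8% of all tested genes were) and 13 lower (14.4% of all) without overlap between the groups' libraries. For Car9, the carbonic anhydrase gene often used as a readout of hypoxia, the mean was under the minimum of 0.5 FPKM and no test was made. It is given for its role and was named after its values were seen. Its FPKM were 0.296, 0.607 and 0.562 in the controls and 0.148 and 0.0773 in the libraries labelled skmNrip1-/-. Car12, another carbonic anhydrase gene of the list under the minimum, overlapped between the groups. It had 0.202 to 0.226 FPKM in the controls and 0.227 and 0.116 FPKM in the others, and was also named after its values were seen.

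**Figure D4:**
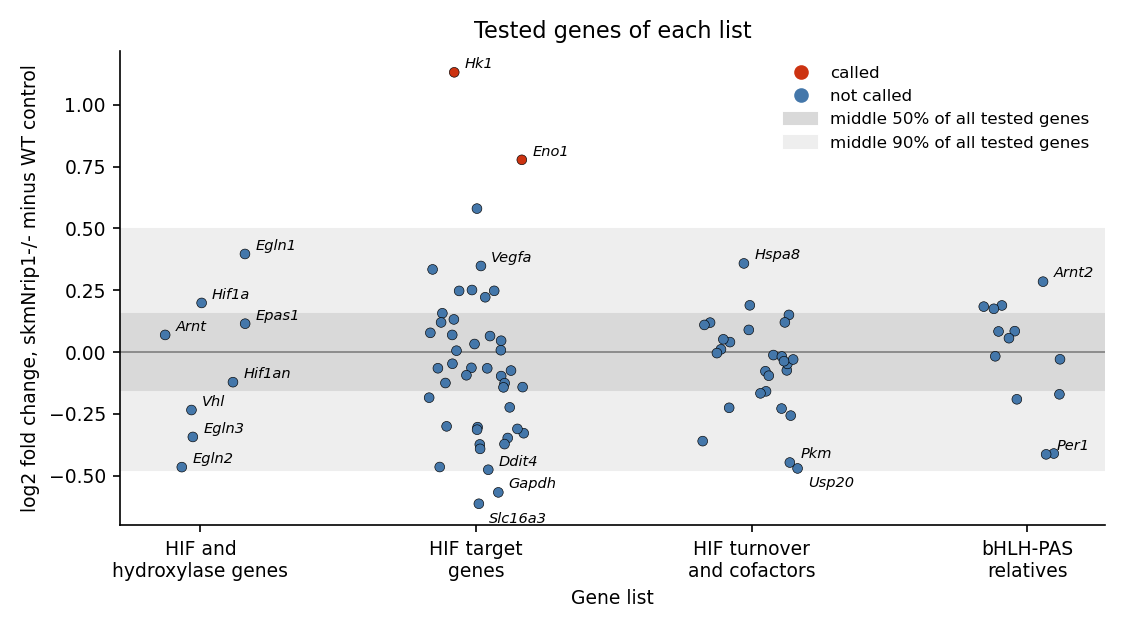
Log2 fold change of each tested gene among the HIF and hydroxylase genes and in 3 lists of related genes, with called genes in red and the others in blue; sideways spread within a list is arbitrary. The grey bands hold the middle 50% and 90% of all 12148 tested genes, and only Hk1 and Eno1, at 1.13 and 0.78, are called.

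Relatives of the HIFs share the basic helix-loop-helix and PAS domains. Of 18 such genes, 13 were tested and 0 were called by limma, against 0.37% of all tested genes called higher and 0.0823% called lower. At an unadjusted limma p of 0.05 or less there were 0, against 6.57% higher and 5.33% lower. There were 7 log2 fold changes above 0 and 6 below, with a median of 0.056. Per1 (-0.41) and Per3 (-0.19), both of the circadian clock, Arntl2 (-0.41) and Sim2 (-0.17) were the lowest. Per1 and Arntl2 overlapped between the groups, Per1 being -0.20 without skmNrip1-/- replicate 2 and -0.63 without WT control replicate 2, and Arntl2 -0.23 without WT control replicate 1 and -0.75 without WT control replicate 3. Arnt2, the closest relative of Arnt, had 1.42, 0.721 and 0.291 FPKM in the controls and 0.441 and 1.60 FPKM in the libraries labelled skmNrip1-/-, so its value of 0.28 had no stable sign, and was -0.22 without WT control replicate 3 and -0.54 without skmNrip1-/- replicate 2. The clock gene Arntl (0.19), Sim1 (0.18) and the coactivator gene Ncoa1 (0.18) were below 0 on the TPM scale.

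Besides endothelium, the summed markers of 2 other kinds did not overlap between the groups. The 5 blood genes had 511.1 to 764.2 FPKM in the controls and 827.3 and 995.5 FPKM in the libraries labelled skmNrip1-/-, with 5 of 5 above 0, from Alas2 (0.37) to Hbb-bt (0.55), both red cell genes. WT control replicate 3 was the lowest, and without it the values were 0.14 for Alas2 and 0.26 for Hbb-bt, with the summed level of the other controls at 660.9 and 764.2 FPKM. The 6 slow myofibre genes had 22.3 to 31.0 FPKM in the controls and 52.4 and 67.5 FPKM in the others. Nearly all of the difference between the groups in that sum came from Myl2, a slow and cardiac myosin light chain gene. Myl2 had 2.03, 1.85 and 9.68 FPKM in the controls and 42.1 and 33.6 FPKM in the others (log2 fold change 3.46, limma adjusted p = 0.127). It was called when WT control replicate 3, the highest control, was left out (4.21, limma adjusted p = 0.00366), while in all 5 libraries Tnni1, slow troponin I, was at -0.20. Skeletal myofibre genes were abundant in every library, as the tissue label implies, with a summed level that overlapped between the groups. Within that list, Actn3, an actinin gene of fast fibres, had 3558, 2712 and 2701 FPKM in the controls and 1739 and 1744 FPKM in the libraries labelled skmNrip1-/- (log2 fold change -0.77, limma adjusted p = 0.169). Mb, the myoglobin gene, had 4522, 4329 and 5157 FPKM in the controls and 7764 and 7664 FPKM in the others (0.73, limma adjusted p = 0.160). Neither overlapped between the groups and neither was called, although on the TPM scale Actn3 was (-1.07, limma adjusted p = 0.0213). Summed markers of mural cells, macrophages, fibroblasts, fat and nerve overlapped between the groups. In the fit of the deposited FPKM to all 5 libraries, 0 genes of any marker list were called, against 0.37% of all tested genes called higher and 0.0823% called lower. The part of blood or fibre type content in the Egln1 and Egln2 values was not tested.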

How the data were processed

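Total RNA of TA muscle was sequenced from NEBNext Ultra libraries. The authors quantified the reads with Salmon 1.10.2 on mm10, summarized transcripts to genes with tximport, and deposited FPKM. How FPKM were derived, and the annotation release, are not given in the sources used here. Another 2 deposited columns, the log2 fold change and the adjusted p-value of the authors' own DESeq2 1.44.0 comparison, were not used. The study's legend gives more mice for the skmNrip1-/- group than the 2 libraries analysed here.

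Here, log2(FPKM + 0.1) was fitted with limma 3.58.1 (R 4.3.3; lmFit, eBayes with an intensity trend) over the 12148 genes whose mean reached 0.5 FPKM. All 5 libraries entered 1 fit without covariates, and p-values were adjusted by Benjamini and Hochberg's method. The pseudocount makes the changes of low genes look smaller. Calls required an adjusted p no higher than 0.05 together with a fold change of 1.2 or more. The fit was tested on simulated data with independent normal noise, which does not check the calls in these libraries. Shares and ratios were compared with exact two-sided permutation tests. p-values measure the spread between libraries, which the labels give as replicates without naming the animals.

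The library size was inferred from how the low FPKM are spaced in 1507 single-transcript genes, with 223 to 262 low values per library. At least 99.2% of these low values fell within 0.1 of a whole fragment in every library. The spacing was chosen to make that share high, so the share is no separate check. The size is approximate, and no counting intervals are given. Positions are from GENCODE M21 (GRCm38), which held 16996 of the gene IDs, and promoter sequences are from RefSeq (GRCm38.p6). Tables and plots used Python 3.11.15, pandas 2.3.3, numpy 2.4.6, scipy 1.17.1 and matplotlib 3.10.9.

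The members and gene lists were chosen with earlier results of these data known. Named genes are the 9 members, Nrip1, Vegfa, the called genes and the 4 largest rises and falls of each pathway list, the largest and smallest change in the marker lists of skeletal myofibre and of those whose sums did not overlap, and the 3 nearest profiles of the members with the largest rise and fall; exceptions are stated. Of 2 table entries named Aldoa, the more abundant was used. Epo has no row in the table used here. Alternatives were pseudocounts of 1 and 0.01, no minimum or a minimum of 1 FPKM, median-ratio or TPM scaling, eBayes without trend, robust eBayes, a replicate block, no fold threshold, an adjusted p of 0.01, and leaving out each library.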

Additional observations from a re-analysis of the deposited data

How the results depend on the processing

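No HIF or hydroxylase gene was called under any of the 16 alternatives, and the shares within the HIF alpha and prolyl hydroxylase families kept their direction under those that apply to them. Not all alternatives were separate checks. Median-ratio scaling could change little, since the deposited values already share 1 median level, and an adjusted p of 0.01 can only remove calls. Median-ratio scaling and no fold threshold each left the counts over all genes at 45 higher and 10 lower. Egln1 kept its sign (log2 fold change 0.10 to 0.45) and so did Egln2 (-0.76 to -0.39), with adjusted p of 0.148 to 0.765 and 0.0617 to 0.821. Over all genes, the counts called higher and lower, 45 and 10, were 29 and 59 on the TPM scale, 22 and 3 without the intensity trend, and 14 and 3 at an adjusted p of 0.01. Leaving out 1 library gave 6 to 55 higher and 3 to 16 lower; with 1 library left in the skmNrip1-/- group, that library is assumed to vary like the controls. With the replicate number as a block, 18 were called higher and 4 lower, Egln1 was at 0.35 (limma adjusted p = 0.492), Egln2 at -0.42 (0.442), Arnt2 at -0.22, Kdr at -0.094 and Tnni1 at 0.079, and Myl2 was called (4.21, limma adjusted p = 0.0111). The groups share 2 replicate numbers from the labels, and no mouse gave both libraries of a number. The deviations of same-numbered libraries correlated at 0.0647 and 0.0952 across genes. With 2 skmNrip1-/- libraries these deviations mirror each other, so the correlations cannot decide whether same-numbered libraries share more than a number. Nrip1, Hk1 and Eno1 were not called under that block or without the trend, with log2 fold changes of 1.98 and 1.94, 1.12 and 1.13, and 0.73 and 0.78. With no minimum FPKM, the calls of Hk1 (adjusted p = 0.0674) and Eno1 (0.0544) were lost, and with a pseudocount of 0.01 that of Eno1 (0.0515). Directions turned on the TPM scale for Hif1a (-0.094), Epas1 (-0.18), Arnt (-0.23), Siah1b (-0.17), Ep300 (-0.14), Wsb1 (-0.11), Ncoa1 (-0.12), Sim1 (-0.088), Arntl (-0.10) and Kdr (-0.22), where the median of all genes moved to -0.29. With 1 library left out, Hif1a ranged from 0.12 to 0.32, Epas1 from 0.013 to 0.21, Egln3 from -0.51 to -0.25, Hif1an from -0.19 to -0.05, Arnt from -0.079 to 0.20, Vhl from -0.54 to 0.067, Siah1b from -0.029 to 0.28, Arnt2 from -0.54 to 1.11, Kdr from -0.094 to 0.33 and Tnni1 from -0.78 to 0.39. The cause of these changes was not tested. Hif3a and Vhl, with the fewest estimated fragments, had the widest intervals.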
